A study of Mus musculus with 4 samples.

Results

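The 8 genes described here encode NKG2 receptors, their partner CD94 and related C-type lectin receptors. They are Klrc1 (NKG2A), Klrc2 (NKG2C), Klrc3 (NKG2E), Klrd1 (CD94), Klrk1 (NKG2D), Klre1, Klri2 and Klrg1. They were taken by symbol from 22481 gene symbols, and each had 1 row in every file. The data are RNA sequencing of sorted mouse spleen T cells on the C57BL/6 background, with 1 library in each of 4 groups. WT iNKT and KO iNKT are invariant natural killer T cells, a lipid-recognising lineage, sorted by T cell receptor beta and a lipid-loaded CD1d tetramer. WT CD44hi and KO CD44hi are CD4+ T cells with high CD44, the mark of antigen experience. KO stands for the genotype Ezh2fl/fl CD4-Cre, in which Cre driven by a T cell promoter is directed at floxed Ezh2, the enzyme of Polycomb repressive complex 2. The labels give no age or sex, and do not say how many mice went into a library or whether tetramer-binding cells were gated out of the CD44hi sort.

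CD94 has no signalling motif of its own and forms a disulphide-linked pair with an NKG2 chain. CD94 with NKG2A binds the MHC class Ib molecule Qa-1 and inhibits through a tyrosine motif in the tail of NKG2A, whereas CD94 with NKG2C or NKG2E binds the same ligand and activates through the adaptor DAP12. NKG2D forms its own pair, recognises stress-induced ligands and signals through DAP10. KLRE1 pairs with KLRI1 or KLRI2, and KLRG1 is an inhibitory receptor for cadherins found on differentiated effector T cells, NK cells and some regulatory T cells. All of these receptors are best known from NK cells, and iNKT cells carry several of them.

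Levels are in FPKM, a count of fragments divided by transcript length and by depth, so they can be compared between genes. With 1 library per group there was no replicate and no test. A gene counted as measured in a comparison if either library held at least 1 FPKM of it, and as called when the difference of log2(FPKM + 1) reached 2-fold. Folds below are plain ratios of FPKM. Their 95% exact counting intervals come from fragments estimated from the steps between low values. The intervals do not cover variation between mice or sorts, or the division of reads shared by similar genes. By these steps WT CD44hi had 3.70 times and KO CD44hi 4.92 times the fragments of WT iNKT, and KO iNKT 1.09 times. The members then rested on between 8 fragments (Klrg1 in KO iNKT) and 789 (Klrc1 in KO CD44hi).

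Ezh2 itself was at 15.3 (WT) and 16.8 FPKM (KO) in iNKT, and at 28.9 (WT) and 18.5 (KO) in CD44hi. This sum over all exons includes those outside the floxed stretch and so does not check the genotype labels. The T cell markers Cd3d, Cd3e, Cd3g, Cd5, Cd28 and Cd4 were at 57.1 FPKM or more in every library. WT CD44hi stood apart in holding Y-linked RNA (Eif2s3y at 22.7 FPKM, listed at 0 in the other libraries) beside 46.8 FPKM of Xist. Both CD44hi libraries held RNA of other cells: summed levels of 7 B cell markers were 0.712 and 1.12 FPKM in WT and KO iNKT against 44.5 and 75.0 in WT and KO CD44hi, those of 7 myeloid markers 11.1 and 7.62 against 109 and 118, and those of 5 red cell genes 18.7 and 17.7 against 149 and 721. Within these lists S100a8, S100a9 and Hbb-b2 went the other way. They were at 1.03, 2.72 and 2.62 FPKM in WT iNKT, against 0, 0 and 0.000127 in WT CD44hi. Depth, Y-linked RNA and the markers of other cells cannot be told apart from the groups.

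All 8 genes lie on chromosome 6. From Klre1 to Klri2, 7 of them fall within 163 kb (GRCm38, 129577905 to 129740484) of the NK gene complex, and Klrg1 lies 7.30 Mb before them (122270596 to 122282882, minus strand). Klrc1, Klrc2 and Klrc3 are recent copies of one another. Their longest complete annotated coding sequences were 81.1% identical between Klrc1 and Klrc2, 77.6% between Klrc1 and Klrc3 and 88.6% between Klrc2 and Klrc3, against 44.3% to 53.7% for every other pair of members. The last 110 coding bases, in the ligand-binding lectin domain, show how alike they are (GENCODE M21 on GRCm38, minus strand, coding strand shown, capitals mark bases that differ from Klrc1). They lie at chr6:129674859-129674968 in Klrc1, chr6:129656371-129656480 in Klrc2 and chr6:129639085-129639194 in Klrc3.
Klrc1: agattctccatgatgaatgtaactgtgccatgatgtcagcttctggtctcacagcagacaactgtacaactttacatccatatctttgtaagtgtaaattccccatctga
Klrc2: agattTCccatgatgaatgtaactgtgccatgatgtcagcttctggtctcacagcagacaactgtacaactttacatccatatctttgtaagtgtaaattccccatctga
Klrc3: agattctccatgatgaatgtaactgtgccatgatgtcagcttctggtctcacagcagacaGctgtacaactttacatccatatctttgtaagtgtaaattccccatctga
Klrc2 differs from Klrc1 at 2 of these bases and Klrc3 at 1. Over whole coding sequences, 15.4% of the 50-base windows of Klrc2 recur in Klrc1, 7.29% of those of Klrc3 recur in Klrc1, and 26.6% of those of Klrc2 recur in Klrc3. No 50-base window was shared between any other pair of members. The read length and the treatment of reads with several matches are not given in the sources used here, so the split among the 3 Klrc genes is less certain than their sum.

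The bases before the start of transcription are shown because most of these genes differed in the same direction between libraries. The RefSeq table (GRCm38.p6) holds 250 bases before each start for 5 of the 8 members: Klrc1, Klrc2, Klrc3, Klrk1 and Klre1. The stretches of at least 100 bases that lie outside every GENCODE exon of the same gene are shown, with capitals marking TGTGGT or its complement ACCACA, a word bound by RUNX factors. They are chr6:129678974-129679223 (Klrc1), chr6:129660690-129660846 (Klrc2), chr6:129643338-129643538 (Klrc3) and chr6:129623865-129624114 (Klrk1), all on the minus strand.
Klrc1: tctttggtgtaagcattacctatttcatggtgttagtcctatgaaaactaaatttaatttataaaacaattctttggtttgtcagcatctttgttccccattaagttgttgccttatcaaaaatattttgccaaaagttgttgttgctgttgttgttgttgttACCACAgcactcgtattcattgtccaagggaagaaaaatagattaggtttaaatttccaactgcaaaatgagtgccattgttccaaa
Klrc2: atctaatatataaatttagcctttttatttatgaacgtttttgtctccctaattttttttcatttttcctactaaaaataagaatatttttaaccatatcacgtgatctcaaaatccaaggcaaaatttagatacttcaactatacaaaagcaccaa
Klrc3: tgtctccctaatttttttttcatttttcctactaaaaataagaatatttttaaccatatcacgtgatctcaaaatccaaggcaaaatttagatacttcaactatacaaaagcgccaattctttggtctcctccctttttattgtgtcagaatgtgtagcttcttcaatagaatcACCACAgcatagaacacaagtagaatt
Klrk1: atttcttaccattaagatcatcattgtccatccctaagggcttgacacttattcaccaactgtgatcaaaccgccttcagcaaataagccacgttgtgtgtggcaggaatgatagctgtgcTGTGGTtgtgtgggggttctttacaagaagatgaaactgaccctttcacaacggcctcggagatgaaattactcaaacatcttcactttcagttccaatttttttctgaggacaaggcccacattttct
The Klrc2 and Klrc3 stretches align over 117 columns with 115 identical (98.3%), so the likeness of these copies extends ahead of the genes. Over the full 250 bases, all 5 members held the RUNX word, in 6 of their 7 start windows, against 4614 (14.0%) of the 32851 windows in the table. In Klrc2 both words lie downstream of the stretch printed, inside an exon that GENCODE starts earlier, as does 1 of the words of Klrc3. The copies share their words, so these members are not independent. The T-box word TCACAC (12.3% of all windows) was in 1 of the 7 windows, of Klre1, while the TCF word CTTTGA (13.8%) and the GATA word AGATAA (9.99%) were in 0. Both strands were searched for each word on its own, different words may share end letters, and a match is a description of letters only.

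Klrd1, the shared CD94 chain, was at 182 (WT) and 56.5 FPKM (KO) in iNKT, and at 23.9 (WT) and 45.3 (KO) in CD44hi. WT iNKT was the highest library and WT CD44hi the lowest, with both KO libraries in between. In KO iNKT it was 3.21-fold lower than in WT iNKT (counting interval 2.69 to 3.84), while the ratio of KO to WT in CD44hi was 1.89 (1.63 to 2.20), short of the 2-fold rule.

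Klrc1, the inhibitory NKG2A chain, stood at 69.8 (WT) and 33.8 FPKM (KO) in iNKT, and 13.8 (WT) and 49.8 (KO) in CD44hi. It was 2.06-fold lower in KO than in WT iNKT (1.64 to 2.59) and 3.60-fold higher in KO than in WT CD44hi (3.03 to 4.27). Here KO CD44hi lay above KO iNKT, by 1.47-fold (1.21 to 1.79), though the split of reads among the Klrc genes is uncertain. Klrc2, the activating NKG2C chain, stood at 53.5 (WT) and 21.2 FPKM (KO) in iNKT, and 4.92 (WT) and 13.7 (KO) in CD44hi. Both KO libraries lay between the WT libraries. Its ratio of KO to WT was 0.396 in iNKT (0.301 to 0.522) and 2.79 in CD44hi (2.11 to 3.79). Klrc3, the activating NKG2E chain, had 18.8 (WT) and 9.11 FPKM (KO) in iNKT, and 1.57 (WT) and 8.41 (KO) in CD44hi. The ratio of WT to KO in iNKT was 2.06 (1.33 to 3.20), just short of the rule at a log2 difference of -0.97, and the level was 5.35-fold higher in KO CD44hi (3.28 to 8.87). Klrc2 and Klrc3 were ordered as Klrd1, though the KO libraries of Klrc3 did not differ beyond their counting error, whereas in Klrc1 the KO libraries exchanged places.

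**Figure D1:**
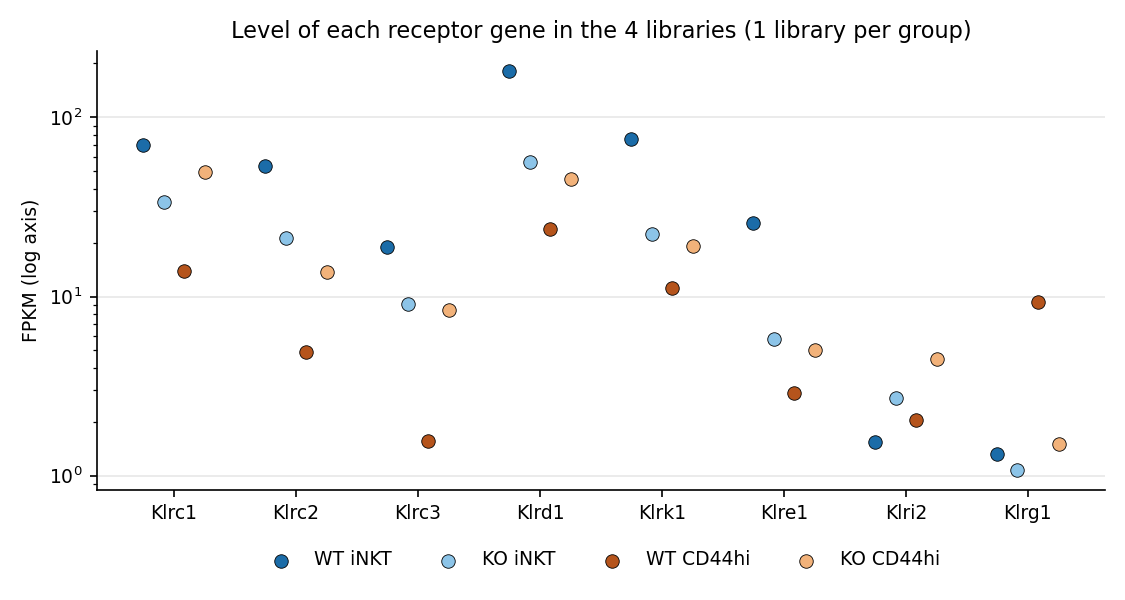
FPKM of the 8 genes (horizontal axis) on a log axis, with 1 point per library and 1 library per group. From Klrc1 to Klre1 the WT iNKT point is the highest and the WT CD44hi point the lowest of the 4, whereas Klrg1 is highest in WT CD44hi at 9.32 FPKM.

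In RNA, the share of Klrc1 among the Klrc genes was larger in both CD44hi libraries, and Klrd1 per summed Klrc was smaller in both KO libraries. The summed FPKM of Klrc1, Klrc2 and Klrc3 was 142 (WT) and 64.1 (KO) in iNKT, and 20.3 (WT) and 71.9 (KO) in CD44hi. Klrc1 made up 49.1% and 52.8% of that sum in WT and KO iNKT, and 68.1% and 69.2% in WT and KO CD44hi. Klrc1 over the sum of Klrc2 and Klrc3 was thus 0.965 and 1.12 in the iNKT libraries and 2.13 and 2.25 in the CD44hi libraries. These shares depend on the uncertain split of reads among the Klrc genes, and Klrc3 in WT CD44hi rested on 20 estimated fragments. Klrd1 per summed Klrc was 1.28 in WT and 0.881 in KO iNKT, and 1.18 in WT and 0.630 in KO CD44hi. The KO library had the smaller ratio in both pairs.

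**Figure D2:**
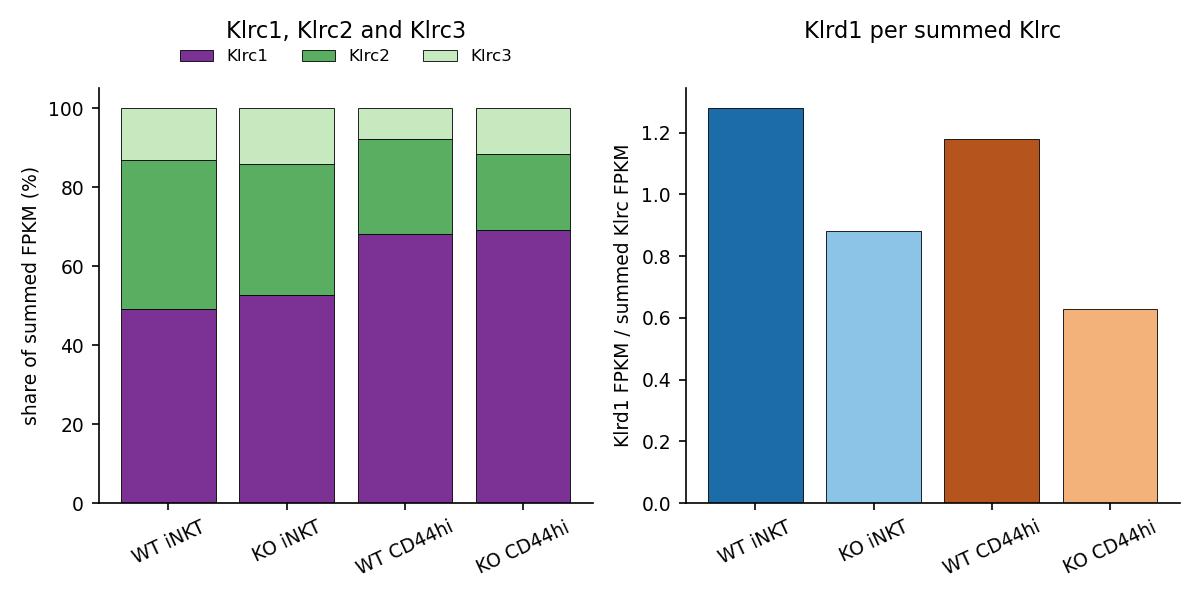
Left, share of the summed FPKM of Klrc1, Klrc2 and Klrc3 in each library (%), where the split of reads among these genes is uncertain. Right, Klrd1 FPKM divided by that sum. The Klrc1 share is 49.1% and 52.8% in the iNKT bars and 68.1% and 69.2% in the CD44hi bars, and the Klrd1 ratio is smaller in each KO bar than in its WT bar.

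Klrk1, which encodes NKG2D, measured 75.4 (WT) and 22.3 FPKM (KO) in iNKT, and 11.2 (WT) and 19.1 (KO) in CD44hi. It was 3.38-fold lower in KO than in WT iNKT (2.74 to 4.19), and the ratio of KO to WT in CD44hi was 1.71 (1.44 to 2.03). Klre1, whose product pairs with KLRI chains, measured 25.7 (WT) and 5.81 FPKM (KO) in iNKT, and 2.89 (WT) and 5.02 (KO) in CD44hi. It had the largest fold among the 8 genes in the iNKT pair, lower in KO by 4.42-fold (3.09 to 6.43), and a ratio of 1.74 in CD44hi (1.29 to 2.35). Both genes kept the order of Klrd1, with KO libraries that did not differ beyond counting error.

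Klri2, a partner of KLRE1, did not follow. It was at 1.54 (WT) and 2.73 FPKM (KO) in iNKT, and at 2.04 (WT) and 4.50 (KO) in CD44hi. The ratio of KO to WT was above 1 in both cell types, 1.77 in iNKT (1.09 to 2.83) and 2.21 in CD44hi (1.82 to 2.70), without reaching the rule on the log2(FPKM + 1) scale. Klri1, the other KLRE1 partner and not one of the 8, had 0.458 (WT) and 1.55 FPKM (KO) in iNKT, against 19.5 (WT) and 25.4 (KO) in CD44hi. In WT iNKT the level of Klre1 was therefore far above that of either partner, while in both CD44hi libraries Klri1 was above Klre1.

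Klrg1 had a different pattern, at 1.33 (WT) and 1.08 FPKM (KO) in iNKT, and 9.32 (WT) and 1.50 (KO) in CD44hi. Only WT CD44hi stood out. KO CD44hi was 6.22-fold below it (4.54 to 8.57), and that difference was the 11th lowest among 11355 measured genes. The iNKT libraries, with 9 and 8 estimated fragments, gave a KO to WT ratio of 0.810 (0.274 to 2.39), and a difference was not detectable at this depth. Beside this, 4 of 6 regulatory T cell markers were called lower in KO CD44hi, with the summed level of the list at 314 FPKM in WT and 105 in KO CD44hi and none listed at 0. Foxp3, the factor that defines these cells, was at 53.8 and 13.4 FPKM. The part of regulatory T cell numbers in the Klrg1 difference was not tested, and in bulk RNA fewer cells of a type and less RNA per cell cannot be told apart.

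In KO iNKT against WT iNKT, 5 of the 8 members were called lower and 0 higher, where 3.35% of 10819 measured genes were called lower and 6.08% higher (9.43% either way). The median log2 difference of the members was -1.16, against 0.05 over all measured genes. In KO CD44hi against WT CD44hi, 3 members were called higher (Klrc1, Klrc2 and Klrc3) and 1 lower (Klrg1), where 2.44% of 11355 measured genes were called higher and 1.14% lower (3.58% either way). The median of the members was 0.87, against 0.01. The 2 pairs share no library. Klrc1, Klrc2, Klrc3, Klrd1, Klrk1 and Klre1 were below 0 in the iNKT pair and above 0 in the CD44hi pair, a pattern shown by 20.7% of the 10455 genes measured in both. Klrc1 and Klrc2 were called lower in the first and higher in the second, as were 24 genes in all (0.230%).

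**Figure D3:**
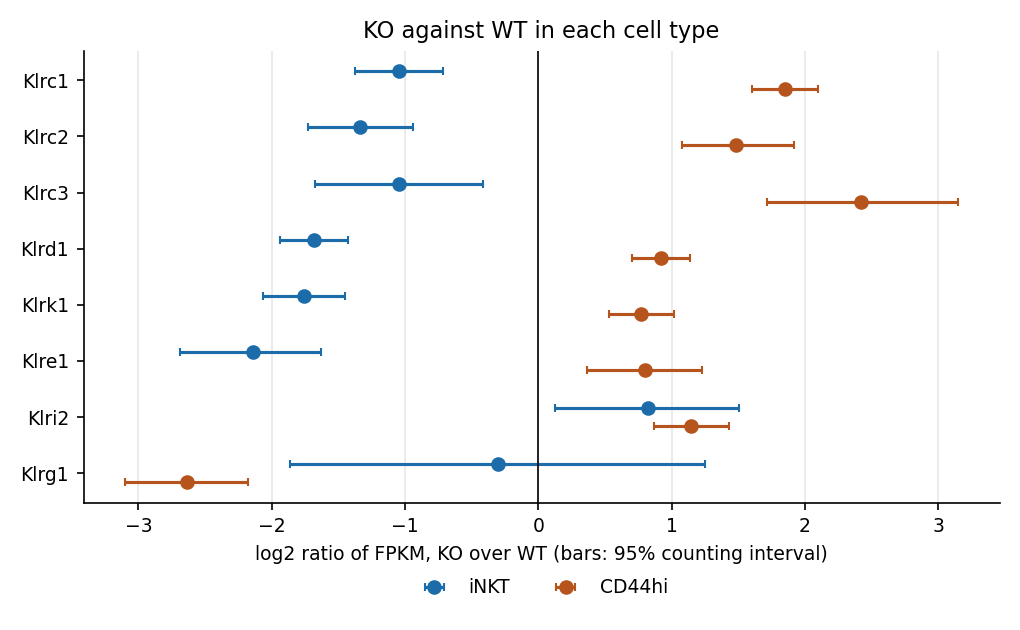
log2 ratio of FPKM, KO over WT, for each gene in iNKT (blue) and CD44hi (orange), 1 library a group. Bars are 95% counting intervals. From Klrc1 to Klre1 the iNKT point lies left of 0 and the CD44hi point right of 0, whereas both Klri2 points lie right of 0 and both Klrg1 points left of it.

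Between the cell types, 6 members were called higher and 1 lower in WT iNKT against WT CD44hi, where 3.65% of 11220 measured genes were called higher and 10.9% lower (14.6% either way). Their ratios of iNKT to CD44hi ran from 5.04 (Klrc1, 4.10 to 6.20) to 12.0 (Klrc3, 7.06 to 20.6), with Klrc2 at 10.9, Klre1 at 8.89, Klrd1 at 7.58 and Klrk1 at 6.74. Klrc2 had the 8th highest difference of all measured genes. Klrg1 was 6.98-fold lower in WT iNKT (3.61 to 15.4), and Klri2 had a ratio of 0.755 (0.495 to 1.15).

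In the KO pair, 0 members were called in either direction, where 3.02% of 11472 measured genes were called higher and 9.07% lower in KO iNKT (12.1% either way). The ratios of KO iNKT to KO CD44hi were 0.680 for Klrc1, 1.54 for Klrc2, 1.08 for Klrc3, 1.25 for Klrd1, 1.17 for Klrk1 and 1.16 for Klre1. Counting intervals included 1 for Klrc3 (0.732 to 1.61), Klrk1 (0.946 to 1.43), Klre1 (0.795 to 1.66) and Klrg1 (0.296 to 1.54). They left out 1 for Klrc1 (0.558 to 0.828), Klrc2 (1.18 to 2.01), Klrd1 (1.05 to 1.48) and Klri2 (0.446 to 0.800). The median log2 difference of the members was 2.71 in the WT pair and 0.14 in the KO pair. The 4 comparisons are built from the same 4 libraries, so these values restate the genotype differences from the side of cell type.

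**Figure D4:**
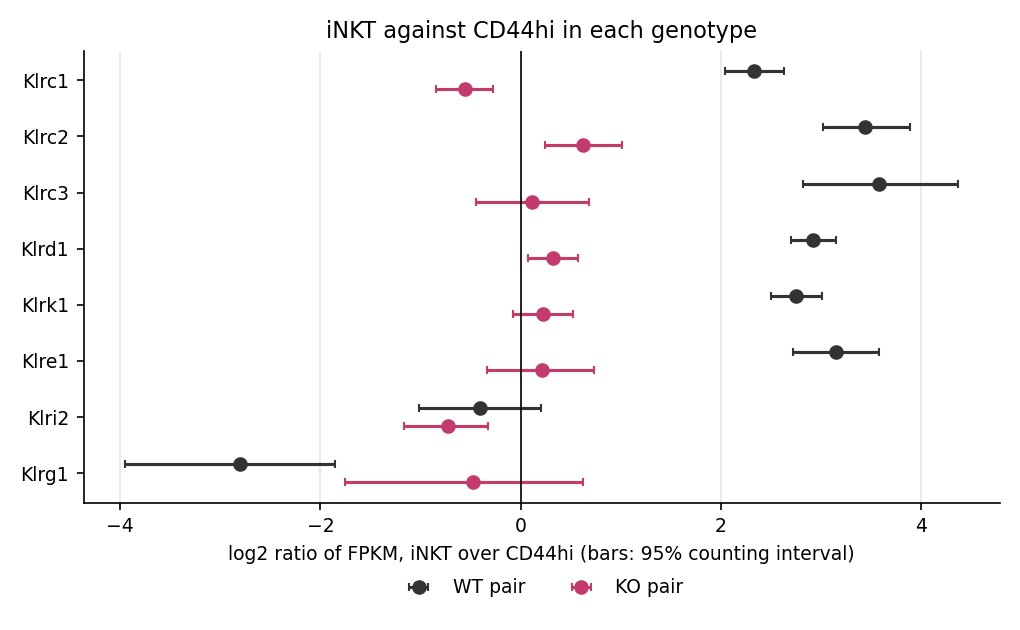
log2 ratio of FPKM, iNKT over CD44hi, for each gene in the WT pair (black) and the KO pair (red), 1 library a group. Bars are 95% counting intervals. From Klrc1 to Klre1 the WT ratios lie between 5.04 and 12.0 and the KO ratios between 0.680 and 1.54.

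Of the 7 genes below 0 in the iNKT pair, 6 lie side by side in the complex, and the other is Klrg1 (-0.17). Ordered by their 5′ ends among the listed genes, Klre1, Klrd1, Klrk1, Klrc3, Klrc2 and Klrc1 are consecutive over 101 kb, and their log2 differences in the iNKT pair were all between -1.97 and -0.97. The nearest measured genes of the list on either side had the other sign. Gabarapl1, an autophagy gene at -58.6 kb from the start of Klrd1, had 0.987 (WT) and 6.51 FPKM (KO) in iNKT, and Klri1 and Klri2 on the far side were at log2 differences of 0.81 and 0.55. Of 32 neighbours found in the files, 18 were measured in the iNKT pair, with 8 called higher and 1, Clec2i, called lower (49.8 to 5.12 FPKM). Among those higher were Klra1, a Ly49 receptor gene (10.7 to 107), and Klrb1a (6.66 to 29.9). In the CD44hi pair 11 of 20 measured neighbours were called higher and 1, Cd69, lower. Klra3 had the largest difference there (0.925 to 14.3 FPKM), and Klrb1c, which encodes NK1.1, went from 14.9 to 58.5. Of all measured genes, 6.08% were called higher and 3.35% lower in the iNKT pair, and 2.44% and 1.14% in the CD44hi pair. Ly49 genes are near-identical copies, so single Klra values are uncertain.

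**Figure D5:**
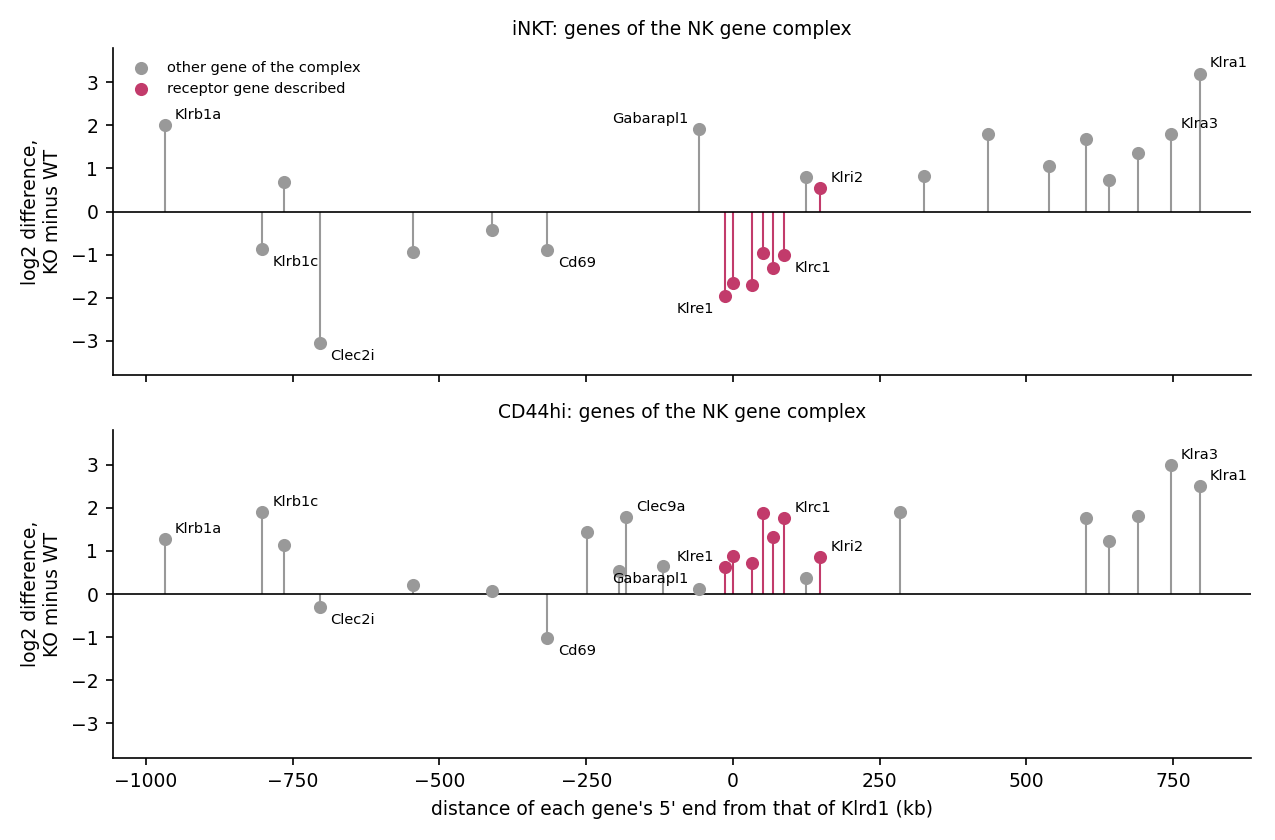
log2(FPKM + 1) difference, KO minus WT, of measured genes of the NK gene complex, against the distance of each gene's 5′ end from that of Klrd1 (kb), for iNKT (top) and CD44hi (bottom). The members from Klre1 to Klrc1 (red) point down in iNKT, between Gabarapl1 and Klri2, which point up, and all members shown point up in CD44hi.

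Of the ligands of these receptors in the same libraries, 1 cadherin was called between genotypes. The list for Qa-1 held 8 genes: H2-T23, which encodes it, genes of the loading machinery, and the class I heavy chain genes H2-D1 and H2-K1. All 8 were measured and 0 were called in any of the 4 comparisons. H2-T23 was at 201 (WT) and 193 FPKM (KO) in iNKT, and at 240 (WT) and 230 (KO) in CD44hi. Of 8 NKG2D ligand genes in the files, Ulbp1 and H60b were measured in at least 1 comparison and 0 were called. Ulbp1 gave 4.85 (WT) and 5.77 FPKM (KO) in iNKT, and 2.73 (WT) and 3.67 (KO) in CD44hi. Of the 3 cadherin ligands of KLRG1, Cdh1 (E-cadherin) was called higher in KO CD44hi, at 0.511 (WT) and 4.40 FPKM (KO). In iNKT it was at 0.0460 (WT) and listed at 0 (KO). Beside this, 6 of 7 plasmacytoid dendritic cell markers were called higher in KO CD44hi. The part of other cells in the Cdh1 difference was not tested.

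Among 16 measured adaptors and kinases, 5 were called lower and 0 higher in KO iNKT. Over all measured genes, 3.35% were called lower and 6.08% higher there, and 1.14% and 2.44% in the CD44hi pair. Hcst, which encodes the NKG2D adaptor DAP10, had 388 (WT) and 162 FPKM (KO) in iNKT, and 121 (WT) and 128 (KO) in CD44hi. Tyrobp, which encodes DAP12, had 6.95 (WT) and 1.98 FPKM (KO) in iNKT, and Fcer1g, another adaptor, 7.25 and 2.37. Vav3, an exchange factor, went from 15.3 in WT to 5.91 in KO iNKT. In the CD44hi pair 1 of 19 was called higher, Tyrobp (121 to 305 FPKM), and 0 lower. Beside it the sum of 7 plasmacytoid dendritic cell markers went from 122 to 461 FPKM, and that of 7 myeloid markers from 109 to 118. The part of other cells in this Tyrobp difference was not tested. In WT iNKT the level of Tyrobp was thus well below that of Klrc2, its NKG2C partner, at 53.5 FPKM. Of 4 inhibitory phosphatases, Ptpn6, which encodes SHP-1, was called higher in KO iNKT (96.4 to 228), and Ptpn11, which encodes SHP-2, lower in KO CD44hi (43.7 to 20.9).

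Factors and cytokine receptors linked to NK receptor expression split in KO iNKT, with 6 of 25 measured called higher and 8 lower. The largest differences were in Id3 (11.4 to 175 FPKM), Tox (6.58 to 47.5), Il12rb2 (29.1 to 4.51) and Eomes, listed at 0 in WT iNKT and at 3.90 in KO iNKT. In the CD44hi pair, 2 of 26 were called higher, Zbtb16 (4.30 to 41.4) and Il18rap (13.3 to 29.7), and 2 lower, Nfil3 (6.52 to 1.66) and Prdm1 (6.27 to 2.10). Runx3 and Runx1 are named because of the promoter word and were chosen after their values were seen. Runx3 had 24.8 (WT) and 10.7 FPKM (KO) in iNKT, and 30.0 (WT) and 31.3 (KO) in CD44hi. Runx1 had 26.8 (WT) and 19.9 FPKM (KO) in iNKT, and 20.0 (WT) and 16.2 (KO) in CD44hi. Runx3 was called lower in KO iNKT, at a log2 difference of -1.14, with 0.06 in the CD44hi pair, and Runx1 was called in neither. Other genes of the list fell further in KO iNKT, among them Il2rb (-2.03), Tbx21 (-1.80) and Id2 (-1.41). The part of any of these factors in the differences of the members was not tested.

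Profiles over the 4 libraries were compared by the distance between log2(FPKM + 1) values centred on each gene's mean, among 8301 genes at 5 FPKM or more in a library. Klrk1 and Klre1 were 0.20 apart, and Klrd1 and Klrk1 likewise. The nearest genes outside the list were Padi2 for Klrd1 (0.27) and Klre1 (0.26) and Itgb3, the integrin beta 3 chain, for Klrk1 (0.21). Padi2, a peptidylarginine deiminase, had 86.3 (WT) and 20.4 FPKM (KO) in iNKT, and 9.38 (WT) and 19.4 (KO) in CD44hi. Near to Klrc1 were Ckb (0.34) and Cd160 (0.37), nearest to Klrc2 was Klrb1c (0.55), and nearest to Klrc3 were Spry2 (0.18) and Ly6c2 (0.34). Klrg1 was nearest to Il10 and Stx1a (both 0.40) and then L1cam (0.53). Il10, an inhibitory cytokine gene, had 0.176 (WT) and 0.488 FPKM (KO) in iNKT, and 5.86 (WT) and 0.394 (KO) in CD44hi, so its highest library was also WT CD44hi. With 4 libraries these distances are a description.

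Because all 8 receptors are carried by NK cells, markers of other cells were read beside them. NK cell markers with little expression in CD4+ T cells (Ncr1, Itgam, Fcgr3, Tyrobp and Sh2d1b1) summed to 8.72 (WT) and 4.26 FPKM (KO) in iNKT, and to 134 (WT) and 320 (KO) in CD44hi. Tyrobp, which myeloid cells also express, made up 121 and 305 FPKM of the CD44hi sums. Ncr1, which encodes NKp46, was at 0.154 (WT) and 0.285 FPKM (KO) in iNKT, and at 1.42 (WT) and 0.565 (KO) in CD44hi, and Sh2d1b1 was listed at 0 in KO iNKT. In KO against WT CD44hi, 1 of the 5 markers, Tyrobp, was called higher and 0 lower. Of the broader list of 13 NK cell and ILC1 markers found, 2 were called higher in KO CD44hi, Tyrobp and Klrb1c, and 0 lower. The CD8 T cell markers Cd8a and Cd8b1 were at 1.33 and 9.87 FPKM in WT CD44hi and at 3.27 and 13.8 in KO CD44hi, against 0 and 0.958 in WT iNKT. Of 7 plasmacytoid dendritic cell markers, 6 were called higher in KO CD44hi, the sum going from 122 to 461 FPKM, with Siglech at 11.1 and 75.7. Of 2 gamma delta T cell markers found, Sox13 was called higher in KO in both cell types, from 0.0947 to 6.30 FPKM in CD44hi and from 0.873 to 6.30 in iNKT. The other, Cd163l1, was at 0.953 (WT) and 1.80 FPKM (KO) in CD44hi, not called, and was called lower in KO iNKT (6.91 to 2.09). The part of these cells in the CD44hi differences was not tested. All 4 iNKT markers were called higher in WT iNKT than in WT CD44hi, and 2 of them, Zbtb16 and Klrb1c, higher in KO than in WT CD44hi. The remaining markers were not called there, with Il2rb at 178 (WT) and 102 FPKM (KO) and Cxcr6 at 69.6 (WT) and 127 (KO). The labels do not say that iNKT cells were removed from that sort, and their part was not tested. In KO against WT iNKT, 2 of the 4 iNKT markers were called lower, Il2rb (814 to 198 FPKM) and Cxcr6 (468 to 94.6). Zbtb16 was called higher (28.2 to 63.1), and Klrb1c was not called (177 to 96.2). The part of the make-up of the iNKT libraries in the differences of the members was not tested.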

How the data were processed

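RNA was sequenced from 4 libraries of sorted mouse spleen T cells, 1 per group. Each deposited file lists FPKM values by gene symbol, as the authors made them and per the file headers. Cufflinks 2.0.2, TopHat 1.3.2, Bowtie2 2.0.0 and mm10 are named, without roles, in the submitters' processing notes. The annotation, strand setting and treatment of reads with several matches are not given in the sources used here. The library kit does not mark strand, so genes overlapping on opposite strands cannot be told apart. Rows sharing a symbol (240 symbols) were summed, 26 symbols found only in the CD44hi files and 777 small RNA symbols were left out, and 22481 were used.

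From these values differences of log2(FPKM + 1) were taken over the whole table for 4 comparisons, which understates differences of low genes. Depth was estimated from the modal low FPKM times length of single-transcript genes of at least 2000 bases (GENCODE M21, GRCm38, the assembly called mm10). Fragments per member used the shortest protein-coding transcript, which gives the widest intervals. The estimate and the calls were checked on simulated counts. The groups came from the sample titles. The members and lists were chosen with earlier results of these data known. Named were all members, genes from the 3 nearest profiles of each member at 5 FPKM or more, leaving out unnamed genes, and up to 4 called genes per list. A gene that this rule gives is not reported here. Alternatives were a pseudocount of 0.1, no filter or one at 5 FPKM, and 3 other scalings. Python 3.11.15, pandas 2.3.3, numpy 2.4.6, scipy 1.17.1, Biopython 1.88 and matplotlib 3.10.9 were used.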

Additional observations from a re-analysis of the deposited data

Results flagged for a closer look

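In 6 of the 8 genes the KO library lay below WT in iNKT and above WT in CD44hi. With no size set, so it did in 20.7% of the 10455 genes measured in both pairs. The difference between the genotype effects (iNKT minus CD44hi, log2(FPKM + 1) scale) was -2.80 for Klrc1, -2.61 for Klrc2, -2.84 for Klrc3, -2.56 for Klrd1, -2.44 for Klrk1 and -2.60 for Klre1. With 1 library per group this difference was not tested. For Klri2 and Klrg1, whose effects had the same sign in both cell types, it was -0.30 and 1.88.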

How the results depend on the processing

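No paired analysis was possible because each group is 1 library, and for the same reason no library could be left out. Over the 6 alternatives, the counts of called members stayed within 1.5 times those reported, and every member measured kept its sign in each of the 4 comparisons. With a pseudocount of 0.1, 6 members were called lower in KO iNKT, Klrc3 being added, and 4 higher in KO CD44hi, Klri2 being added. Of all measured genes, 5.14% and 4.33% were then called so, against 3.35% and 2.44% in the main setting. Rescaling every library to the same total also gave 6 lower in KO iNKT, beside 5.15% of all measured genes. Scaling to Cd3d, Cd3e and Cd3g left 4 lower there, as Klrc1 moved to -0.90, beside 2.83% of all measured genes. That scaling shifted the median of all measured genes from 0.05 to 0.17 in the iNKT pair, from 0.01 to -0.20 in the CD44hi pair and from -0.06 to -0.34 between the WT libraries. Under it Klrd1 was at 0.66 in KO against WT CD44hi. With a pseudocount of 0.1, Klrg1 was at -2.56 there. The differences of the genotype effects ranged from -3.38 (Klrc3) to -2.09 (Klrk1) over the 6 genes. Depth limits Klrg1 in iNKT, at 9 and 8 estimated fragments.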
